A study of Mus musculus with 9 samples.

Results

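The genes described here are 42 genes of the unfolded protein response and of protein folding in the endoplasmic reticulum (ER), out of 54347 genes listed in a table of RNA sequencing counts from mouse pancreatic neuroendocrine tumors and normal islets. They were taken as a list of names, and the list was drawn up with earlier results of these data known. Each was found in the table. They comprise the chaperone BiP and its co-factors (10 genes), lectin chaperones and protein disulfide isomerases (6 genes), ER-associated degradation (11 genes), the stress sensors with Xbp1 (5 genes), Atf4 with its targets (6 genes), and the translocation channel with other ER membrane proteins (4 genes).

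The tumors came from bi-transgenic INS-p25OE mice, which carry Ins2-rtTA and tetOp-p25GFP. Doxycycline in the drinking water, given from weaning at 3 to 4 weeks of age, switches on p25, a fragment of p35 that overactivates the kinase Cdk5, in cells that use the insulin promoter. M1, M2 and M3 were functional, that is hormone-secreting, tumors, and M4, M5 and M6 were non-functional tumors. NI1, NI2 and NI3 are labelled as islets of C57BL/6 males. All mice of the model were kept on the C57BL/6 background, per the study's methods. M2 came from the only female, so sex and tumor cannot be told apart there. Per the study's methods, littermates without the transgenes that shared cages with bi-transgenic mice on doxycycline served as normal controls, but whether the donors of these 3 islet libraries were such littermates is not stated there. Ages at harvest are not given in the sources used here. The transgene acts in beta cells, whereas a tumor or an islet also holds other cells, so in these bulk samples fewer cells of a type and less RNA per cell cannot be told apart.

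Secretory cells such as the beta cell fold large amounts of hormone precursor in the ER. When unfolded protein accumulates, the sensors Ire1 (gene Ern1), Atf6 and Perk (gene Eif2ak3) are released from BiP. Ire1 splices the messenger of Xbp1, Atf6 is cut to give a transcription factor, and Perk phosphorylates eIF2alpha, which lowers translation in general while translation of Atf4 rises. Atf6 and spliced Xbp1 are known to raise chaperone and degradation genes through a promoter sequence called the ER stress response element, and Atf4 acts through the amino acid response element (CARE). Splicing, cleavage and phosphorylation are not seen in gene counts, so only the messenger level of each gene was measured here.

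Promoter elements of the pathway are shown here for genes whose levels are followed below. RefSeq promoter windows (GRCm38.p6, 250 bases before to 50 bases after the start site) were found for 37 of the 42 genes. The ER stress response element was searched as CCAAT and CCACG separated by 9 bases, on both strands. It was present in 9 of these 37 genes and in 37 of 27025 genes with a window (0.137%). The related type II element, ATTGG and CCACG separated by 1 base, was present in 2 of the 37 genes against 0.0444% of all genes. Both elements share CCACG, and ATTGG is CCAAT read on the other strand. CARE, searched as TGATGNAA, was in 4 of the 37 genes against 4.51% of all genes, and the Xbp1 element TGACGTGG was in 1 of the 37 against 0.714%. A match is a description of the letters and was not tested as a binding site.

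The matches below carry the element in capitals with 10 bases on either side, 5′ to 3′ on the strand of the gene. The first group holds the ER stress response element in chaperone and degradation genes, where a match that begins with CGTGG is the element on the opposite strand.
Hspa5, chr2:34772015-34772053, plus strand: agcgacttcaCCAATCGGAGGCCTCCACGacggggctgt
Hsp90b1, chr10:86705628-86705666, minus strand: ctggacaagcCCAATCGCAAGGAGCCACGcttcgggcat
Dnajc3, chr14:118937817-118937855, plus strand: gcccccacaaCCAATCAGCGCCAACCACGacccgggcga
Creld2, chr15:88819510-88819548, plus strand: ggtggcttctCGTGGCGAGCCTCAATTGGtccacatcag
Calr, chr8:84847065-84847103, minus strand: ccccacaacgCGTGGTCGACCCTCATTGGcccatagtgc
Canx, chr11:50325790-50325828, minus strand: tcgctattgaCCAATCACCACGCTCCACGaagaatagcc
Pdia6, chr12:17266481-17266519, plus strand: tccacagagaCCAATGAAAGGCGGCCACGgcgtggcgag
Syvn1, chr19:6046522-6046560, plus strand: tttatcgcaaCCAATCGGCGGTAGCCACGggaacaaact
Derl3, chr10:75893232-75893270, plus strand: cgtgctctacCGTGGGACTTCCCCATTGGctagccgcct

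Hsp90b1 holds a further match nearer to its start site. The type II element of Herpud1 lies between 52 and 42 bases before its start site, and the CARE matches of 3 targets of Atf4 are given with it. The CARE match of Trib3 lies 14 to 21 bases after its start site. Atf4, Ddit3 and Sesn2 held no CARE match in their windows, and the CARE match of Herpud1 is not printed.
Herpud1, chr8:94386367-94386397, plus strand: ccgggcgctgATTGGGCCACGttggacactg
Trib3, chr2:152344029-152344056, minus strand: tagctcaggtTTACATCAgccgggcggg
Chac1, chr2:119351039-119351066, plus strand: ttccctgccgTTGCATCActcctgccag
Asns, chr6:7693215-7693242, minus strand: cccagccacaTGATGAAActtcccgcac

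Each library held 36468280 to 63637175 counts, and a count of 3 stood for 0.0424 to 0.119 scaled CPM. CPM here means counts relative to the library total, scaled by TMM, a factor that sets the bulk of genes level between libraries. Mitochondrial transcripts made up 32.1% of the counts of M4 and 1.76 to 8.41% elsewhere. All 42 genes were among the 15532 genes tested, those that reached 1 CPM in 3 or more libraries. The replicates are separate samples of one kind, and the p-values measure the spread between them.

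One library did not follow its label, and every comparison with islets rests on it in part. Cdk5r1 encodes p35, of which p25 is a fragment. In the tumor mice the transgene expresses p25 directly, and whether its reads were counted on Cdk5r1 was not tested. Cdk5r1 was at 279 CPM in the library labelled NI1, while NI2 and NI3 were at 18.3 and 12.5 CPM. The tumors ranged from 149 to 400 CPM (M3 highest), so this library lay inside their range. Over all tested genes it was nearest to M6, with an SD of the log2 difference of 0.317, against 0.481 between NI2 and NI3 and 0.68 to 1.25 for every other pair. The pair was not treated as one library, since the glucagon gene Gcg was at 786 CPM in the library labelled NI1 and 34.6 CPM in M6, and the early response gene Fos at 156 and 1.41 CPM. Their counts also differed by more than counting error (median chi-square per gene 3.70, against 0.455 from counting error alone), a measure that holds no spread between libraries of one sample. The folding genes showed the same closeness. The ratio of the library labelled NI1 to M6 had a median of 1 over the 42 genes (range 0.87 to 1.86), with 32 genes within 10% and 39 within 25% of M6. Against the mean of NI2 and NI3 its median ratio was 0.544, and it lay below both of them in 41 of 42 genes. The tests of tumors against islets are therefore given with and without this library.

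**Figure D1:**
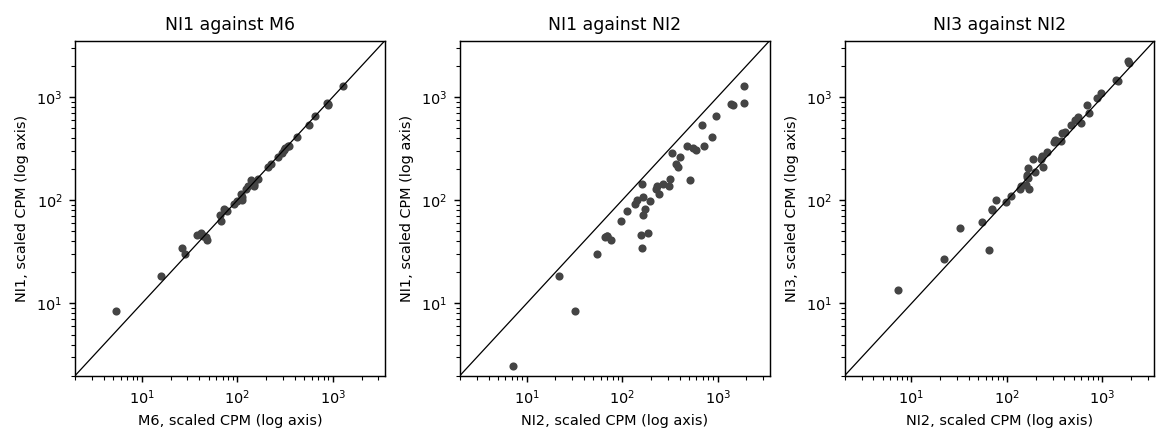
Scaled CPM of the 42 genes in pairs of libraries, 1 point a gene, with log axes and the line of equality. The library labelled NI1 runs along the line against M6 and below it against NI2, while NI3 and NI2 lie close to their line.

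Tumors held less of most folding gene messengers than the libraries NI2 and NI3. In 33 of the 42 genes every tumor lay below both of these islet libraries, against 16.3% of all tested genes. Every tumor lay above both in 0 of the 42, against 2581 of 15532 tested genes. With the library labelled NI1 among the islets, every tumor lay below all islet libraries for 3 genes (Hsp90b1, Dnajc3 and Edem2), against 3.17% of all tested genes. The 9 genes whose tumors overlapped NI2 or NI3 were Calr, Canx, Derl2, Derl3, Ern1, Ddit3, Trib3, Sesn2 and Ssr1.

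**Figure D2:**
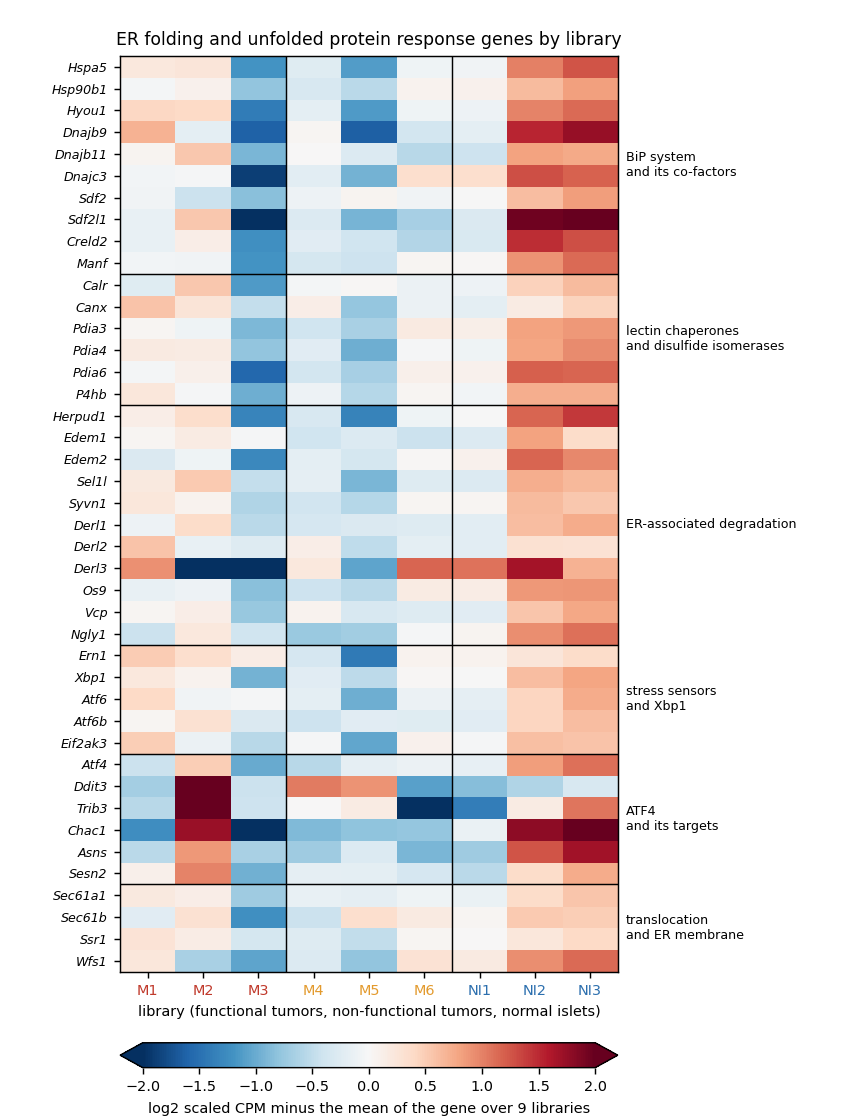
Each cell gives the log2 scaled CPM of a gene in a library minus the mean of that gene over the 9 libraries, with genes in rows by role and libraries in columns. NI2 and NI3 are above the mean in nearly every row, M3 is blue (below the mean) in most rows, and M2 stands out in the rows of Atf4 and its targets.

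With all 9 libraries, the quasi-likelihood test of edgeR, adjusted over all tested genes by Benjamini and Hochberg's method, called none of the 42 genes at an adjusted p under 0.05, where 0.258% of all tested genes were called lower and 0% higher. The smallest adjusted p among the 42 was 0.148. At an unadjusted p under 0.05, 23 of the 42 were lower and 0 higher, against 9.14% of all genes lower. DESeq2 on the same libraries called 12 of the 42 lower and 0 higher, against 3.14% of all genes lower. The log2 fold change was below 0 in 40 of the 42 genes, with a median of -0.72, against a median of 0.03 over all tested genes. Without the library labelled NI1, the same test called 11 of the 42 lower and 0 higher, against 3.17% of all genes lower and 5.34% higher. The median of the 42 was then -0.93 and that of all genes 0.05. DESeq2 without this library called 26 of the 42 lower, against 6.7% of all genes.

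**Figure D3:**
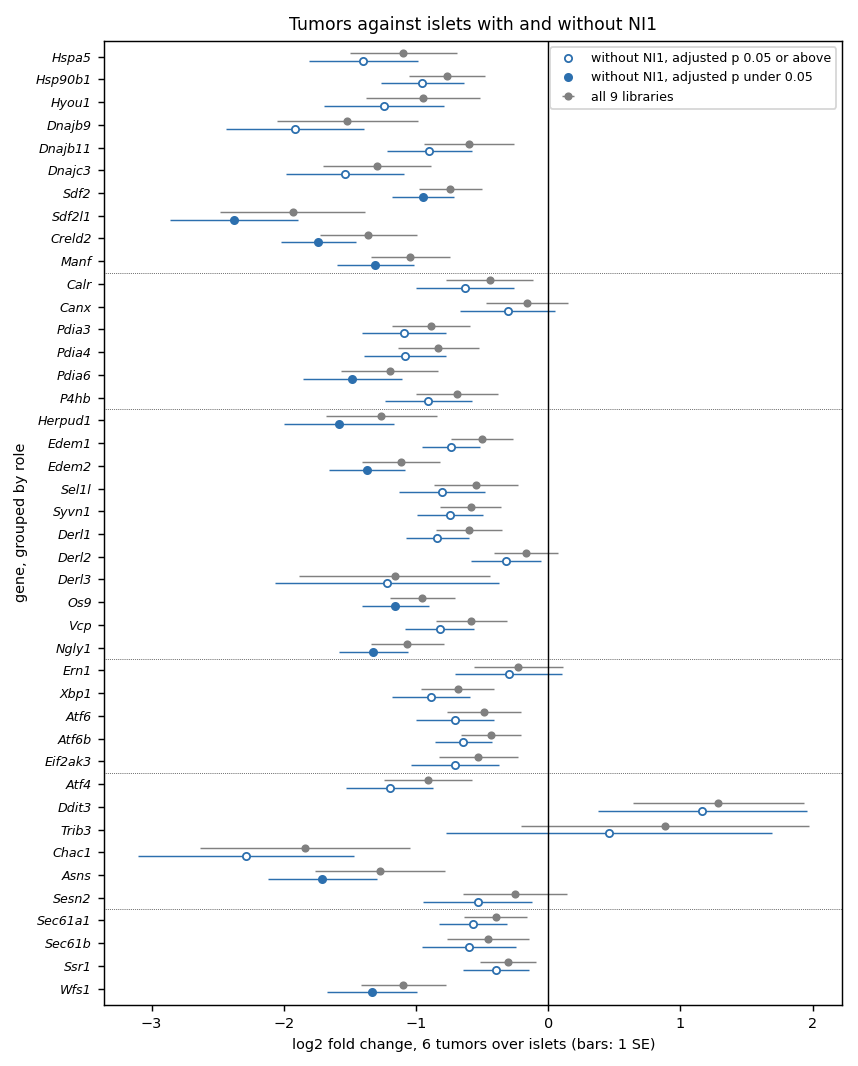
The log2 fold change of the 6 tumors over islets for each gene, with 1 standard error, from the fit of 9 libraries (grey) and from the fit without the library labelled NI1 (blue, filled where the adjusted p is under 0.05). Points lie left of 0 for 40 of the 42 genes in both fits, and Ddit3 and Trib3 lie to the right.

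BiP and its co-factors had the lowest median log2 fold change of the 6 role groups, at -1.07 with all libraries and -1.35 without the library labelled NI1. BiP itself (Hspa5, chr2:34771970-34777547), the chaperone that also holds the sensors inactive, was at 1070, 1099 and 405 CPM in M1 to M3 and at 785, 426 and 872 CPM in M4 to M6. Its level was 880 CPM in the library labelled NI1, 1872 CPM in NI2 and 2226 CPM in NI3. Every tumor was below NI2 and NI3, and M1 and M2 exceeded the library labelled NI1. The log2 fold change of BiP was -1.10 (SE 0.41, adjusted p = 0.193 by edgeR's quasi-likelihood test) with 9 libraries and -1.40 (SE 0.41, adjusted p = 0.0659) without the library labelled NI1, which misses the threshold in both fits.

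Sdf2l1, a partner of BiP-associated J proteins that keeps substrates soluble, had the lowest log2 fold change of the 42 genes in both fits. It was at 37.7, 60.6 and 9.25 CPM in M1 to M3, at 34.7, 22.0 and 26.5 CPM in M4 to M6, and at 162 and 168 CPM in NI2 and NI3. The library labelled NI1 was at 34.3 CPM, among the tumors. Its log2 fold change was -1.93 (SE 0.55, adjusted p = 0.152) with all libraries and -2.38 (SE 0.48, adjusted p = 0.0215) without that library by edgeR's test.

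Creld2, an ER stress-induced protein with disulfide isomerase activity, had the smallest adjusted p of the 42 genes without the library labelled NI1. Tumors ranged from 24.4 CPM in M3 to 62.5 CPM in M2, with a mean of 44.7 ± 13.0 CPM (SD, n = 6). NI2 and NI3 were at 159 and 140 CPM and the library labelled NI1 at 46.0 CPM. Without that library the log2 fold change was -1.74 (SE 0.28, adjusted p = 0.0103, edgeR), and with it -1.36 (SE 0.37, adjusted p = 0.148).

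Manf, a secreted ER protein that protects beta cells, was at 89.8 to 211 CPM in tumors, lowest in M3 and highest in M6. It was at 207 CPM in the library labelled NI1 and at 382 and 449 CPM in NI2 and NI3. Manf had a log2 fold change of -1.04 (SE 0.30, adjusted p = 0.152) with all libraries and -1.31 (SE 0.29, adjusted p = 0.0271) without the library labelled NI1, by edgeR's quasi-likelihood test. Sdf2, the paralog of Sdf2l1, ranged from 25.7 to 47.2 CPM in tumors and was at 70.2 and 81.9 CPM in NI2 and NI3, with a log2 fold change of -0.95 (SE 0.24, adjusted p = 0.0399 by edgeR) in the fit without it and -0.74 (adjusted p = 0.166) in the fit with it. Sdf2 and Sdf2l1 are paralogs, and reads that match both could have been split between them by the quantification.

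The remaining genes of this group did not pass the test in either fit. Dnajb9, a J protein that returns Ire1 to its BiP-bound state, had a mean of 148 ± 86.9 CPM (SD, n = 6) in tumors and 557 CPM over NI2 and NI3. Its log2 fold change was -1.52 (adjusted p = 0.182) with all libraries and -1.92 (adjusted p = 0.0524) without the library labelled NI1, by edgeR. For Hsp90b1, Hyou1, Dnajb11 and Dnajc3 the log2 fold changes ran from -1.30 to -0.60 with all libraries and from -1.54 to -0.90 without that library. In all, 4 of 10 genes of the BiP system were lower without the library labelled NI1 and 0 with it.

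Of the lectin chaperones and disulfide isomerases, which fold glycoproteins and form the disulfide bonds of secreted proteins such as insulin, 1 of 6 was lower without the library labelled NI1. This was Pdia6, a disulfide isomerase that also attenuates Ire1. It was at 308, 340 and 106 CPM in M1 to M3, at 246, 200 and 341 CPM in M4 to M6, at 336 CPM in the library labelled NI1, and at 727 and 706 CPM in NI2 and NI3. Pdia6 had a log2 fold change of -1.20 (SE 0.37, adjusted p = 0.162) with 9 libraries and -1.48 (SE 0.38, adjusted p = 0.0428) without that library by edgeR's test.

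Pdia3, the isomerase that works with the lectin chaperones, had a log2 fold change of -0.89 (adjusted p = 0.170, edgeR) with all libraries and -1.09 (adjusted p = 0.0633) without the library labelled NI1. Calnexin (Canx), the membrane lectin, differed least in this group. Its tumors ran from 357 to 911 CPM around 682 and 831 CPM in NI2 and NI3, and its log2 fold change was -0.16 (adjusted p = 0.811, edgeR) with all libraries and -0.31 (adjusted p = 0.624) without the library labelled NI1. Calreticulin (Calr), the soluble lectin, also overlapped, since M2 at 1032 CPM lay between NI2 at 973 CPM and NI3 at 1096 CPM.

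ER-associated degradation recognises misfolded proteins and returns them to the cytosol for the proteasome. Of its 11 genes, 4 were lower without the library labelled NI1. Herpud1, a stress-induced scaffold of the ubiquitin ligase complex, was at 151, 176 and 55.0 CPM in the functional tumors, at 110, 54.1 and 130 CPM in the non-functional tumors, and at 307 and 366 CPM in NI2 and NI3. The library labelled NI1 was at 137 CPM, within the tumors. Tumors over islets gave a log2 fold change of -1.26 (SE 0.42, adjusted p = 0.168) with all libraries and -1.58 (SE 0.42, adjusted p = 0.0484) without that library, by edgeR's quasi-likelihood test.

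Edem2, which trims mannose from misfolded glycoproteins, was the only one of these 4 whose tumors also lay below the library labelled NI1. Its tumors ranged from 44.0 to 109 CPM, against 115, 241 and 210 CPM in the libraries labelled NI1, NI2 and NI3. Its log2 fold change was -1.11 (adjusted p = 0.148, edgeR) with 9 libraries and -1.37 (adjusted p = 0.0227) without the library labelled NI1. The lectin Os9, which hands trimmed glycoproteins to the ligase, had -0.95 (adjusted p = 0.148, edgeR) and -1.16 (SE 0.25, adjusted p = 0.0256) in these fits, with tumors at 114 to 225 CPM and NI2 and NI3 at 370 and 371 CPM. Ngly1, the cytosolic enzyme that strips N-glycans from retrotranslocated proteins, had -1.07 (adjusted p = 0.148, edgeR) and -1.32 (SE 0.26, adjusted p = 0.0192), with tumors at 17.1 to 33.3 CPM and NI2 and NI3 at 55.0 and 61.5 CPM.

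Derl3, a derlin of the retrotranslocation channel, had the widest range over tumors of the folding and degradation genes, the highest tumor being 14.5 times the lowest. It was at 38.9, 5.20 and 3.21 CPM in M1 to M3, at 23.8, 9.93 and 46.4 CPM in M4 to M6, and at 43.7, 65.5 and 33.3 CPM in the libraries labelled NI1, NI2 and NI3. The groups overlapped, and the log2 fold change was -1.16 (SE 0.72, adjusted p = 0.390 by edgeR) with all libraries and -1.22 (SE 0.85, adjusted p = 0.389) without the library labelled NI1. Derl3 is also abundant in acinar and plasma cells. Tumors held 21.9 to 316 CPM summed over 16 acinar markers. In M1 and M3 nearly all of the sum was Bhlha15, at 62.9 of 65.1 CPM and 20.7 of 21.9 CPM. In M6, with the highest sum, Bhlha15 was at 50.6 CPM. The libraries labelled NI1, NI2 and NI3 held 443, 586 and 7546 CPM of these markers. For 8 B and plasma cell markers the sum was 38.4 to 296 CPM in tumors and 259 to 365 CPM in the islet libraries. The part of acinar cells and of B and plasma cells in the level of Derl3 was not tested.

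The stress sensors and Xbp1 had a median log2 fold change of -0.49 with all libraries and -0.71 without the library labelled NI1, and none of the 5 genes passed the test in either fit. Xbp1 (chr11:5520659-5525893) was at 307, 277 and 137 CPM in M1 to M3, at 225, 183 and 269 CPM in M4 to M6, and at 263, 404 and 455 CPM in the libraries labelled NI1, NI2 and NI3. Its log2 fold change was -0.68 (SE 0.28, adjusted p = 0.219 by edgeR) with all libraries and -0.88 (SE 0.30, adjusted p = 0.0942) without the library labelled NI1. Atf6 had a log2 fold change of -0.49 (adjusted p = 0.355) with all libraries and -0.71 (adjusted p = 0.164) without it, and Eif2ak3 had -0.53 (adjusted p = 0.348) and -0.71 (adjusted p = 0.208), by edgeR's test. Ern1 differed least, at -0.23 (SE 0.34, adjusted p = 0.742, edgeR) with all libraries and -0.30 (SE 0.40, adjusted p = 0.677) without the library labelled NI1, with M1 at 194 CPM above NI3 at 176 CPM and M5 at 51.3 CPM the lowest library.

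Of the translocation and ER membrane genes, Wfs1 (chr5:36966104-36989205), the ER membrane protein lost in Wolfram syndrome with its beta cell failure, was the 1 of 4 that was lower without the library labelled NI1. It was at 142, 78.1 and 59.0 CPM in M1 to M3, at 101, 70.6 and 148 CPM in M4 to M6, and at 138, 234 and 269 CPM in the libraries labelled NI1, NI2 and NI3. Wfs1 had a log2 fold change of -1.10 (SE 0.32, adjusted p = 0.161) with 9 libraries and -1.33 (SE 0.34, adjusted p = 0.0434) without that library, by edgeR. Sec61b, a subunit of the translocation channel, had -0.45 (adjusted p = 0.434, edgeR) with all libraries and -0.60 (adjusted p = 0.317) without that library. Sec61a1 and Ssr1 had -0.40 and -0.30 with it and -0.57 and -0.40 without it.

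Atf4 and its targets lay on both sides of 0, with 4 of 6 genes below it and Ddit3 and Trib3 above. The estimate of Trib3, 0.88 (SE 1.09, adjusted p = 0.682, edgeR) with all libraries and 0.46 (adjusted p = 0.846) without the library labelled NI1, rested on M2 and was -0.68 without that tumor. Atf4 itself (chr15:80255184-80257541) was at 133, 251 and 88.7 CPM in M1 to M3, at 120, 157 and 163 CPM in M4 to M6, and at 159, 317 and 381 CPM in the libraries labelled NI1, NI2 and NI3. Its log2 fold change was -0.91 (SE 0.34, adjusted p = 0.192, edgeR) with all libraries and -1.20 (SE 0.33, adjusted p = 0.0538) without the library labelled NI1. Asns, asparagine synthetase, was the only target lower without that library, with a log2 fold change of -1.71 (SE 0.41, adjusted p = 0.0369, edgeR) and -1.27 (SE 0.49, adjusted p = 0.205) with it. Asns was at 54.2, 143 and 50.4 CPM in M1 to M3, at 48.3, 64.8 and 41.8 CPM in M4 to M6, and at 47.9, 188 and 251 CPM in the libraries labelled NI1, NI2 and NI3.

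Ddit3 (chr10:127290774-127296288), which encodes CHOP, the factor tied to death of stressed beta cells, had an estimate above 0 that did not pass the test. It was at 20.9, 136 and 25.02 CPM in M1 to M3, at 69.2, 62.8 and 15.9 CPM in M4 to M6, and at 18.5, 22.0 and 27.0 CPM in the libraries labelled NI1, NI2 and NI3. M2, M4 and M5 were above every islet library, while M1 and M6 were below NI2 and M3 lay among the islets. The log2 fold change was 1.29 (SE 0.65, adjusted p = 0.298) with 9 libraries and 1.17 (SE 0.79, adjusted p = 0.376) without the library labelled NI1, by edgeR.

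Chac1, which degrades glutathione and is induced by Atf4 and CHOP, was at 3.90, 30.6 and 2.03 CPM in the functional tumors and at 5.02, 5.27 and 5.41 CPM in the non-functional tumors. The libraries labelled NI1, NI2 and NI3 were at 8.40, 32.0 and 53.4 CPM. M2 was thus near NI2 and the other tumors were below all islet libraries. Chac1 had a log2 fold change of -1.84 (SE 0.80, adjusted p = 0.239, edgeR) with all libraries and -2.29 (SE 0.82, adjusted p = 0.112) without the library labelled NI1.

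The tumor M2 held the highest level of all 6 genes of the Atf4 group among tumors. Trib3 (chr2:152337422-152344032), a pseudokinase induced by Atf4 and CHOP, was at 61.4 CPM in M2 and at 1.34 to 7.23 CPM in the other 5 tumors, a ratio of 46.0 between the highest and lowest tumor. The islet libraries were at 2.48, 7.23 and 13.6 CPM. Sesn2, a stress-induced inhibitor of growth signalling, was at 119 CPM in M2 against 30.8 to 64.3 CPM in the other tumors. Over all tested genes M2 was the highest tumor in 19.5%. M2 was the only female sample, and it had the second lowest share of insulin transcripts.

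**Figure D4:**
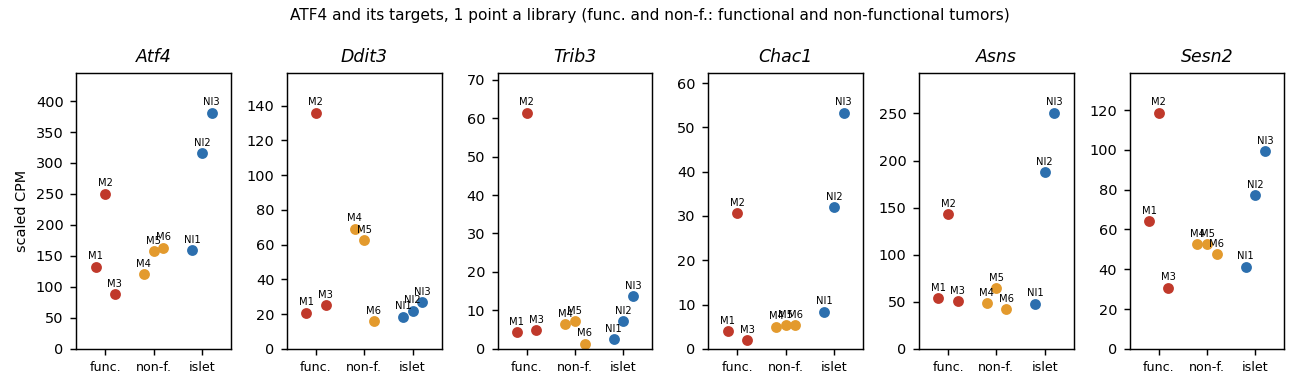
Scaled CPM of Atf4 and 5 of its targets, 1 point a library, in functional tumors, non-functional tumors and islets, with a linear axis from 0 for each gene. M2 is the highest tumor in all 6 panels, M4 and M5 are also above the islets for Ddit3, and the library labelled NI1 lies with the tumors.

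Tumors also differed from each other in the level of the folding genes as a group. M3 was the lowest tumor for 26 of the 42 genes, against 18.0% of all tested genes, and for 9 of the 10 genes of the BiP system. M2 was the highest tumor for 19 genes and M1 for 13, against 19.5% and 14.3% of all tested genes. M5 was lowest for 10 genes (against 21.2% of all tested genes), among them 3 of the 5 sensor genes. Summed over the BiP system, the level was 3798, 3860 and 1601 CPM in M1 to M3 and 2930, 1994 and 3392 CPM in M4 to M6. The same sum was 3452 CPM in the library labelled NI1, 6693 CPM in NI2 and 7508 CPM in NI3, so the highest tumor had less than both NI2 and NI3. The highest tumor exceeded the lowest by a median of 2.58 times over the 42 genes, against 2.29 times over all tested genes, from 1.52 times for Edem1 to 46.0 times for Trib3.

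Functional and non-functional tumors were compared to ask whether hormone secretion goes with the level of the folding machinery. None of the 42 genes was called, nor was any tested gene (0%), by the same edgeR test. At an unadjusted p under 0.05, 1 of the 42 was higher in functional tumors and 0 lower, against 4.71% and 5.58% of all genes, and DESeq2 called 0 of the 42, against 0.715% of all genes. The median log2 fold change of the 42 was 0.26, against 0.01 over all genes. All 6 genes of the Atf4 group and all 5 sensor genes had estimates above 0, the first set with M2 as the highest tumor in each.

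The estimates farthest from 0 were those of Trib3, Chac1 and Ern1. Trib3 had a log2 fold change of 2.24 (SE 1.12, adjusted p = 0.517, edgeR), which became -0.11 without M2. Chac1 had 1.22 (SE 0.95, adjusted p = 0.678, edgeR), which became -0.82 without M2. Ern1 had 0.77 (SE 0.33, adjusted p = 0.481, edgeR), and its functional tumors at 151 to 194 CPM lay above its non-functional tumors at 51.3 to 144 CPM.

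Against islets, both kinds of tumor shared the same 3 islet libraries. In functional tumors 0 of the 42 genes were called with all libraries, where 0.431% of all genes were called lower, and 5 were called lower without the library labelled NI1, against 2.85% of all genes. In non-functional tumors 0 were called with all libraries, where 0% of all genes were called lower, and 4 without that library, against 1.15% of all genes. At an unadjusted p under 0.05 with all libraries, 11 of the 42 were lower in functional tumors (9.82% of all genes) and 23 in non-functional tumors (6.19% of all genes). DESeq2 called 7 lower in functional tumors (5.03% of all genes) and 2 in non-functional tumors (0.979% of all genes). The median log2 fold changes of the 42 were -0.69 and -0.78 with all libraries and -0.92 and -1.01 without the library labelled NI1.

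The insulin genes are the main load on the ER of a beta cell, so the folding genes were set beside the share of counts on Ins1 and Ins2. This share was 8.83, 1.75 and 1.47% in M1, M2 and M3, 3.80, 8.37 and 11.8% in M4, M5 and M6, and 12.2, 24.8 and 26.0% in the libraries labelled NI1, NI2 and NI3. Tumors held less, with a difference in mean log2 share of -2.14 (two-sided exact permutation test over 84 labelings, p = 0.0238). Without the library labelled NI1 the difference was -2.49 (exact permutation p = 0.0714, where the smallest p possible is 0.0357). NI2 and NI3 thus had the most insulin transcript. They also had the highest summed CPM in every role group except Atf4 and its targets. There M2 at 740 CPM lay above NI2 at 643 CPM. The library labelled NI1 lay close to M6 in the insulin share and in these sums.

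Among the 6 tumors, libraries with like insulin shares differed in folding gene level. M2 and M3 had nearly the same share, yet the sum over the BiP system in M2 was 3860 CPM and in M3 1601 CPM. M1 and M5 had similar shares as well, with 3798 and 1994 CPM. In a fit of the 6 tumors, none of the 42 genes had a slope on the log2 insulin share that passed the test (0% of all tested genes did) in edgeR. At an unadjusted p under 0.05, 2 of the 42 had a slope above 0 and 1 below, against 2.39% and 1.64% of all genes. DESeq2 called 1, Derl3, with a slope above 0, against 0.399% of all genes. The median slope of the 42 was 0.05 log2 units per doubling of the share, against 0.00 over all genes.

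**Figure D5:**
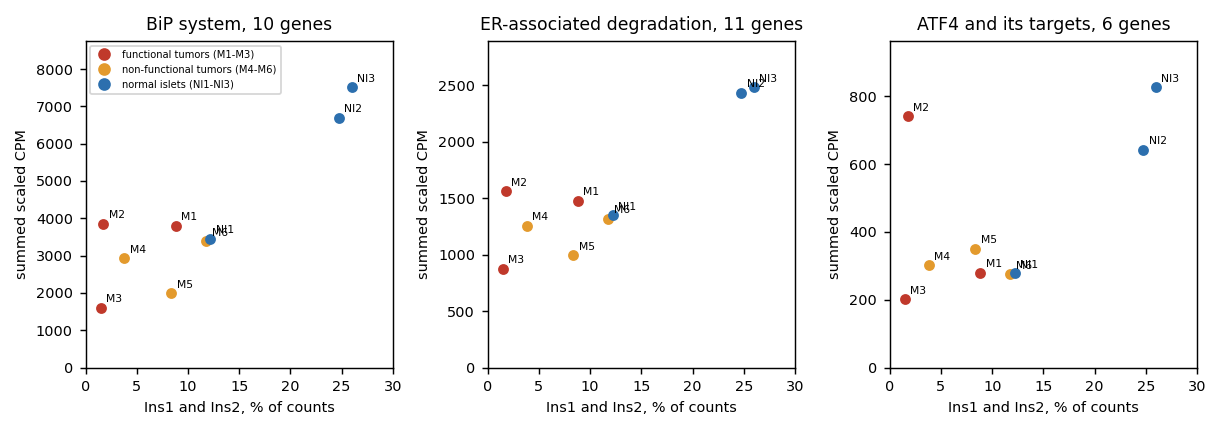
Summed scaled CPM of 3 role groups against the percent of counts on Ins1 and Ins2, 1 point a library. NI2 and NI3 lie farthest to the right and highest, except that M2 lies above NI2 in the panel of Atf4 and its targets. The library labelled NI1 lies on M6, and M2 and M3 differ in height at nearly the same insulin share.

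The steepest slopes were those of Trib3, Derl3 and Chac1. Trib3 had -1.22 log2 units per doubling of the insulin share (SE 0.41) and Chac1 -0.61 (SE 0.36). All 6 genes of the Atf4 group had slopes below 0, against 50.24% of all tested genes. M2, which had the second lowest share, was the highest tumor for each of the 6. Derl3 had 1.09 (SE 0.29). Each of these 3 had an adjusted p of 0.999 in edgeR's test. Across the 6 tumors the level of Derl3 had Pearson's r = 0.84 (exact permutation p = 0.0542) and Spearman's rho = 0.94 (exact permutation p = 0.0167) with the insulin share, and the adjusted p over all tested genes was 0.999 and 0.964 (exact permutation). Leaving out M3 and M2, the tumors farthest from the median share on the log2 scale, r was 0.29, so the relation rests on those tumors. In the Atf4 group, r without M3 and M2 was 0.84 for Atf4, -0.77 for Ddit3 and -0.66 for Trib3. It was -0.08 to -0.001 for Chac1, Asns and Sesn2.

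A list of 128 other genes of the pathway was also read, of which 124 were tested. Of these, 0 were called with all 9 libraries by edgeR's quasi-likelihood test, where 0.258% of all tested genes were lower and 0% higher. Without the library labelled NI1, 23 were lower and 1 was higher, against 3.17% and 5.34% of all tested genes. Estimates were below 0 in 96 of the 124 with all libraries and in 101 without that library. Over all tested genes the share below 0 was 47.5% and 47.05%. Of the 40 tested genes on the list of Atf4 and CHOP targets, 10 were lower without the library labelled NI1. Of the 26 other ER folding genes 6 were lower and 1 higher, and of the 28 genes of translocation, signal cleavage and N-glycosylation 5 were lower. Of the 18 other genes of ER-associated degradation 2 were lower, and of the 12 tested genes of stress signalling 0 were.

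The 5 of these with the smallest adjusted p were Cars, Dnajc1, Ppp1r15a, Tars and Mogs. Cars, cysteinyl-tRNA synthetase, was at 23.9 to 43.9 CPM in tumors and at 43.3, 122 and 117 CPM in the libraries labelled NI1, NI2 and NI3, with a log2 fold change of -1.81 (SE 0.21, adjusted p = 0.00292, edgeR) without the first of them. With all libraries the 5 genes had log2 fold changes from -1.46 (Cars) to -0.91 (Mogs) and adjusted p from 0.0837 to 0.152 by edgeR. The values that follow are without the library labelled NI1. Ppp1r15a, the phosphatase subunit that reverses the phosphorylation of eIF2alpha, had -1.57 (adjusted p = 0.00728, edgeR), and the J protein Dnajc1 had -1.26 (adjusted p = 0.00541). Tars, threonyl-tRNA synthetase, had -1.45 (adjusted p = 0.0113, edgeR), and Mogs, the glucosidase that starts glycan trimming, had -1.18 (adjusted p = 0.0125). Rcn1, a calcium-binding ER protein, was the 1 gene that was higher, at 1.20 (adjusted p = 0.0461, edgeR), and had 0.59 (adjusted p = 0.375) with all libraries. Its tumors were at 43.4 to 95.8 CPM, with the library labelled NI1 among them at 77.5 CPM, and NI2 and NI3 at 26.3 and 34.2 CPM.

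Cell makeup moved with these comparisons. The summed level of 10 beta cell markers, which includes the insulin genes, was 18476 to 116696 CPM in tumors, 121853 CPM in the library labelled NI1, 327101 CPM in NI2 and 364556 CPM in NI3. Fibroblast markers (8 genes) summed to 105 to 2075 CPM in tumors and 123 to 191 CPM in the islet libraries, and macrophage markers (8 genes) to 464 to 1270 CPM and 189 to 433 CPM. The summed level of 15 genes of the response to tissue dissociation, several of which respond to stress, was 215 to 268 CPM in tumors, 818 CPM in the library labelled NI1, 3184 CPM in NI2 and 1765 CPM in NI3. Markers of alpha, delta and PP cells (8 genes) summed to 437 to 3547 CPM in tumors, 1547 CPM in the library labelled NI1, 4281 CPM in NI2 and 21712 CPM in NI3. Proliferation genes (8 genes) summed to 302 to 919 CPM in tumors, 287 CPM in the library labelled NI1, 147 CPM in NI2 and 46.4 CPM in NI3. T and NK cell markers (6 genes) summed to 3.46 to 22.0 CPM in tumors and 16.5 to 42.4 CPM in the islet libraries, endothelial markers (7 genes) to 387 to 1256 CPM and 1135 to 1239 CPM, and ductal markers (7 genes) to 328 to 793 CPM and 419 to 539 CPM. No marker of these lists was at 0 in all 6 tumors, although the acinar marker Ptf1a was seen only in M6, at 0.0176 CPM. NI2 and NI3 differed many-fold in acinar markers, given above, and their sums over the BiP system were 6693 and 7508 CPM. The part of each of these cell types and of dissociation in the level of the folding genes was not tested.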

How the data were processed

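RNA from 6 tumors and 3 islet samples was sequenced as single-end reads on a NextSeq500. Per the labels and the methods of the study, the authors trimmed reads with Trimmomatic 0.38 and quantified transcripts with Salmon 1.4.0 against mm10. The deposited values are estimated counts per gene, whole numbers that were not scaled between libraries. The step from transcripts to genes is not given in the sources used here. Reads shared by paralogs may be split between them.

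Identifiers were matched to GENCODE M21 (GRCm38) for 54094 of 54347 genes, and the 253 others held 0.0121% of the counts. Ddit3 has 2 identifiers there, and the one with the longer exons was used. After TMM scaling, edgeR 4.0.16 (R 4.3.3) gave two-sided quasi-likelihood p-values, adjusted by Benjamini-Hochberg over the 15532 genes that reached 1 CPM in 3 or more libraries. A gene was called at an adjusted p under 0.05. Tumors were fitted as 1 group of 6 against 3 islet libraries. Functional, non-functional and islet libraries were fitted as 3 groups, and the slope was fitted over 6 tumors. The SE is the size of the log2 fold change divided by the square root of F. DESeq2 1.42.0 and limma 3.58.1 were alternatives. Fits with all libraries of tumors against islets, functional against non-functional tumors and the insulin slope were tested on simulated data. The other comparisons and settings were not. Leaving out the library labelled NI1 was planned, and leaving out M6 with it, or using DESeq2 without NI1, was added after the data were seen.

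The 42 genes and the other lists were chosen with earlier results of these data known. Fully described were members past the threshold in either fit of tumors against islets, the 2 largest fold changes of each role, BiP, Xbp1, Atf4, Ddit3 and the sensors, and the 3 largest estimates of the other comparisons. Other members that are named were chosen after their values were seen. Shared numbers of M1 to M3 and NI1 to NI3 did not pair the libraries.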

Additional observations from a re-analysis of the deposited data

Results flagged for a closer look

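Dixon's ratio, the gap between an extreme sample and its neighbour divided by the range, was examined for the 42 genes over the 6 tumors, where values above its 95% critical value are marked. For normally distributed values chance marks about 1 in 20 groups. Of the 42 genes, 3 were marked, all of them targets of Atf4 with M2 as the highest tumor. The ratio was taken on CPM without a log. It was not examined over all tested genes, so no share over all genes stands beside this count. The ratio was 0.902 for Trib3 (61.4 CPM in M2, next tumor 7.23 CPM), 0.882 for Chac1 (30.6 CPM, next 5.41 CPM) and 0.772 for Asns (143 CPM, next 64.8 CPM). M2 was the only female sample, so sex and tumor cannot be told apart.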

How the results depend on the processing

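The number of the 42 genes called was 0 in each of the 5 comparisons with all libraries, and it changed with the tool and with the library labelled NI1. For tumors against islets it ranged from 0 to 11 when 1 library was left out, 11 being the value without the library labelled NI1. It was 12 with DESeq2 (3.14% of all tested genes were called lower), 31 with limma-voom and library weights (13.5%), 11 with the library labelled NI1 and M6 both left out (3.59%), and 26 with DESeq2 without the library labelled NI1 (6.7%), all of them lower. For functional tumors against islets it ranged from 0 to 5 with 1 library left out, and was 7 with DESeq2 (5.03%), 22 with limma-voom (9.76%) and 5 with both libraries left out (3.49%). For non-functional tumors against islets it ranged from 0 to 4, and was 2 with DESeq2 (0.979%), 18 with limma-voom (2.4%) and 2 with both left out (1.94%). For the insulin slope DESeq2 called 1 (0.399% higher). Other scalings, no filter, removal of mitochondrial or insulin genes and an adjusted p under 0.1 kept each count at 0. The insulin share difference ranged from -2.49 to -1.81 on the log2 scale with 1 library left out, and its exact permutation p was 0.05 or above without M2, M3, M4 or any 1 of the islet libraries.

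The numbers shared by functional tumors and islets did not pair them, since same-numbered libraries had correlations of -0.052, 0.03 and -0.159. A fit with the replicate block called 0 of the 42 genes.

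For tumors against islets, 39 of the 42 genes kept the direction of their estimate in all 19 alternatives. With 1 library left out, Trib3 ranged from -0.68 (without M2) to 1.56, Canx from -0.31 to 0.008 and Sesn2 from -0.55 to 0.044, the upper values of Canx and Sesn2 without NI3, and Trib3 was at -0.52 with limma-voom. For functional against non-functional tumors with 1 library left out, Chac1 ranged from -0.82 (without M2) to 1.72 and Trib3 from -0.11 (without M2) to 2.73, and Chac1 was at -0.19 with limma-voom. The insulin slope of Chac1 ranged from -0.93 to 0.39, the latter without M2. With 2 islet libraries besides the library labelled NI1, and 1 library a tumor, small differences could not be resolved.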
